A study of Mus musculus with 3 samples.

Results

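The cells described here are liver T cells that carried checkpoint or costimulatory transcripts and no CD8 transcript. A barcode was counted among them when at most 30% of its unique molecular identifiers (UMIs, each counting 1 captured RNA molecule) were mitochondrial, when Cd3d, Cd3e, Cd3g and Trac together gave at least 2 UMIs, when Pdcd1, Ctla4, Foxp3, Tnfsf4, Tnfrsf4 and Havcr2 together gave at least 2 UMIs, and when Cd8a, Cd8b1 and Cd79a were all at 0. This left 395 of 36990 barcodes, with 202 in the control library (CON), 120 in the high-fat diet library (HFD) and 73 in the carbon tetrachloride library (CCL4). Among them 27 had a UMI of Foxp3 (chrX:7573644-7595245, plus strand, GRCm38), 18 in CON, 5 in HFD and 4 in CCL4, and 368 had none. They were compared with the other CD4-lineage T cells, the 2495 barcodes that met the same rule except that they had fewer than 2 UMIs in the 6 checkpoint genes.

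The study profiled wild-type male C57BL/6 mice, aged 8 weeks at the start, by droplet 3′ single-cell RNA sequencing of hepatocytes and nonparenchymal liver cells mixed in equal parts. CON mice stayed on chow, HFD mice received a diet with 60% of calories from fat for 4 months, and CCL4 mice received chow for 3 months and then 0.1 mL of 10% carbon tetrachloride into the peritoneum 2 times a week for 4 weeks. Each condition was 1 library that pooled 2 mice, so no difference between conditions has a replicate check, and intervals given for single libraries cover counting error only. The libraries held 49613255 (CON), 34985786 (HFD) and 34061186 (CCL4) UMIs, and the cells described here held 617804, 326114 and 162461 of them, with a median of 2409.5 (CON), 2312.5 (HFD) and 2052 (CCL4) UMIs per cell. Between 36 and 52 barcode sequences recurred between pairs of libraries, and 0 of these were checkpoint-positive CD4-lineage cells in both.

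Immune checkpoints are receptors that restrain T cells after activation. CTLA-4 competes with the costimulatory receptor CD28 for its ligands, PD-1 (Pdcd1) dampens signalling through the antigen receptor, and OX40 (Tnfrsf4) is a costimulatory receptor of activated and regulatory T cells. Regulatory T cells, defined by the transcription factor Foxp3, carry CTLA-4 constitutively, and in the liver they act beside tissue-resident helper and cytotoxic T cells to keep responses to gut-derived material in check.

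The label CD4-lineage was then checked against Cd4 itself, which the selection did not use. Cd4 was detected in 100 of 202 cells in CON, 27 of 120 in HFD and 4 of 73 in CCL4, at 265, 101 and 24.6 UMIs per 1000000 UMIs of the class (CPM, the scale of every level given below). In checkpoint-positive T cells with a CD8 UMI the Cd4 level was 9.91 (CON), 27.4 (HFD) and 8.49 (CCL4) CPM, and in hepatocyte barcodes, which should lack the gene, it was at most 0.847 CPM. Cd4 was therefore well above the CD8 class in CON and HFD, whereas in CCL4 the interval of 6.71 to 63.0 CPM included the level of the CD8 class. Zbtb7b, the transcription factor that commits thymocytes to the CD4 lineage, was at 21.0, 24.5 and 24.6 CPM and was detected in 13, 7 and 4 cells. Among the other CD4-lineage T cells with 0 checkpoint UMIs, Cd4 was detected in 86 of 675 (CON), 38 of 791 (HFD) and 15 of 610 (CCL4). Among those with 1 it was detected in 39 of 153, 29 of 148 and 3 of 118. CD4-lineage is used below only for the absence of CD8 UMIs. In the CCL4 library the label has little support from Cd4 in either class, and in HFD little in the other CD4-lineage T cells.

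The 6 genes that chose the cells are given as a description only. Ctla4 (ENSMUSG00000026011, chr1:60887000-60915832, plus strand, GRCm38) carried most of the selection, since it was detected in 196 of 202 cells in CON, 106 of 120 in HFD and 70 of 73 in CCL4, at 1000.3, 852 and 954 CPM. The same gene was at 28.8 (CON), 60.4 (HFD) and 49.9 (CCL4) CPM in B cell barcodes, taken here as a comparison class. Tnfrsf4 was detected in 52, 50 and 15 cells, with its highest level in HFD (300.5 CPM against 128 in CON and 129 in CCL4). Pdcd1 was found in 47 (CON), 12 (HFD) and 9 (CCL4) cells, and Havcr2, which encodes the inhibitory receptor TIM-3, in 28, 13 and 3. Tnfsf4, which encodes the OX40 ligand and is 1 of the 5 genes proposed to mark these cells, was detected in 4, 1 and 0 of them. In checkpoint-positive CD8 T cells it was found in 70 of 194 (CON), 7 of 54 (HFD) and 0 of 48 (CCL4). Tnfsf4 helped to choose both classes, so no difference is read from these counts. At the threshold, 70 (CON), 47 (HFD) and 45 (CCL4) cells had exactly 2 checkpoint UMIs, and 153, 148 and 118 CD4-lineage cells lay just outside it with 1.

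**Figure D1:**
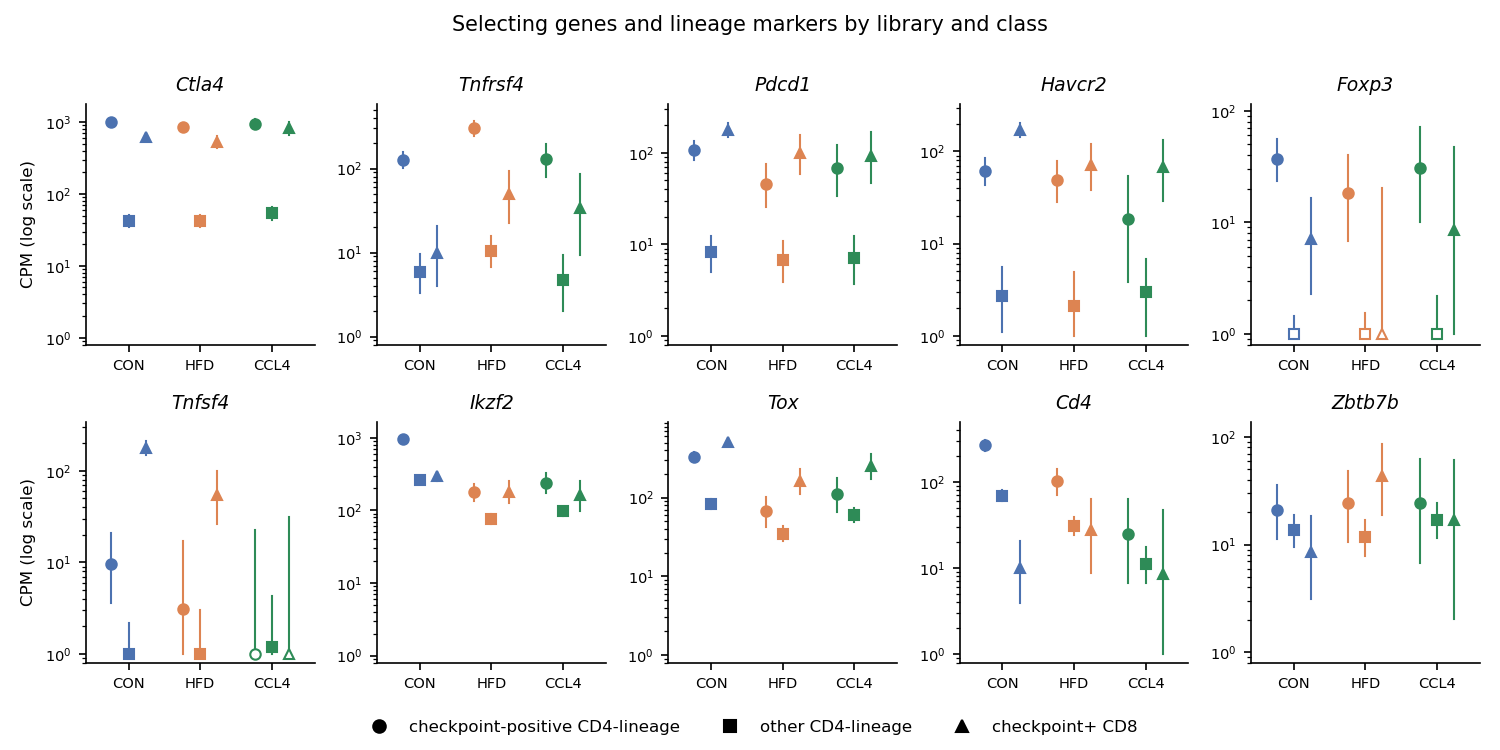
Levels (CPM, log scale) of the 6 selecting genes and of Ikzf2, Tox, Cd4 and Zbtb7b in checkpoint-positive CD4-lineage T cells (circles), other CD4-lineage T cells (squares) and checkpoint-positive CD8 T cells (triangles) of each library; lines are exact 95% Poisson intervals for counting error, and a level of exactly 0 is drawn as an open symbol at 1 CPM. Ctla4 was at 852 to 1000.3 CPM in the checkpoint-positive CD4-lineage cells, Tnfsf4 was highest in the CD8 cells of CON, and Cd4 was at 265 CPM in CON and 24.6 CPM in CCL4.

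Checkpoint-positive CD4-lineage cells made up 10.7% (exact 95% interval 9.33 to 12.2) of the CD3-positive barcodes in CON, 7.60% (6.34 to 9.02) in HFD and 5.73% (4.52 to 7.16) in CCL4. The interval of CON overlapped neither of the others. Because the libraries differed in depth, each barcode was also thinned to 1000 UMIs and the CD3 rule applied again. Every CD3-positive barcode was deep enough, but only an expected 1139 of 1891 (CON), 732 of 1578 (HFD) and 567 of 1273 (CCL4) still met the rule, and the expected shares among these were 7.54%, 4.08% and 2.85%, in the same order. Within the checkpoint-positive T cells of either lineage, the CD8-negative ones were 51.0% in CON, 69.0% in HFD and 60.3% in CCL4. Foxp3-positive cells were 8.91% (5.37 to 13.7), 4.17% (1.37 to 9.46) and 5.48% (1.51 to 13.4) of the checkpoint-positive CD4-lineage cells, and these intervals overlapped in all 3 libraries. All shares depend on how many cells of each kind were recovered and mixed, and with 1 library per condition the condition and the library cannot be told apart.

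**Figure D2:**
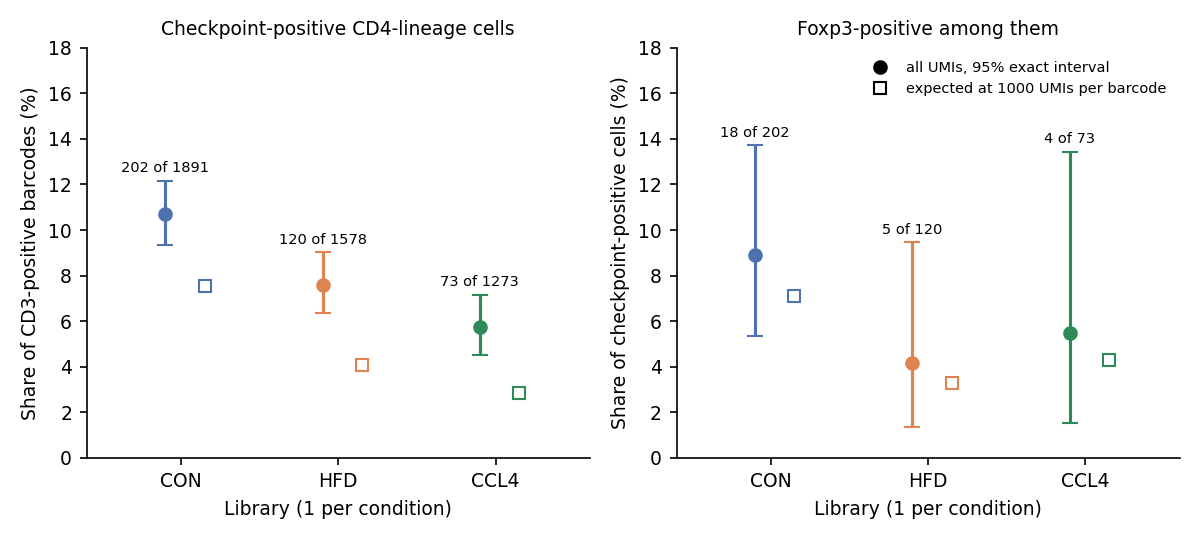
Share (%) of checkpoint-positive CD4-lineage cells among CD3-positive barcodes (left) and of Foxp3-positive cells among them (right) in each library; filled circles are all UMIs with exact 95% binomial intervals, and open squares are the shares expected at 1000 UMIs per barcode. The left share was 10.7% in CON, 7.60% in HFD and 5.73% in CCL4, while the intervals on the right overlapped.

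The next question was what these cells shared beyond the genes that chose them. Compared with the other CD4-lineage T cells of the same libraries, they had higher levels of Maf, Ikzf2, Areg, Il10 and Tox2, and of most proliferation genes tested. They had lower levels of most naive and recirculating genes, such as Satb1, Lef1, Il7r and Klf2, and of most natural killer (NK) and innate-like T cell genes. UMIs were summed per library and class, and edgeR's quasi-likelihood test with a term for the library was run on 11752 genes with the 13 selecting genes left out. At a Benjamini-Hochberg adjusted p under 0.05, 275 genes were higher (2.34% of those tested) and 377 lower (3.21%). The median log2 fold change of all genes was -0.08. DESeq2 called 73 higher and 69 lower, without CON the counts were 105 and 99, and without the library term 0 genes were called, with 401 at an unadjusted p under 0.05. Both classes came from the same 3 libraries, and the split was made on UMIs of the cells that were then compared.

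Penk, which encodes the opioid precursor proenkephalin, had the largest increase among genes higher in all 3 libraries. It was at 61.5 (CON), 46.0 (HFD) and 18.5 (CCL4) CPM in checkpoint-positive cells and at 1.16, 2.95 and 2.95 CPM in the others, a log2 fold change of 4.19 ± 0.44 (SE; edgeR adjusted p = 1.4e-18), and came from 17, 7 and 3 cells. Il1rl1, the receptor for interleukin-33, was at 51.8, 12.3 and 6.16 CPM against 2.33, 2.53 and 2.95 CPM and was 3.22 ± 0.52 higher (edgeR adjusted p = 9.1e-08), with 12 positive cells. Areg, which encodes the tissue-repair growth factor amphiregulin, was at 85.8 (CON), 193 (HFD) and 135 (CCL4) CPM against 10.1, 27.4 and 8.85 CPM. Its log2 fold change was 2.99 ± 0.24 (edgeR adjusted p = 3.3e-33), and checkpoint-positive cells were higher in all 3 libraries. Il10, an anti-inflammatory cytokine, was at 98.7, 36.8 and 12.3 CPM against 8.92, 4.63 and 4.72 CPM, 2.97 ± 0.35 higher (edgeR adjusted p = 8.7e-15). The remaining genes named by size were Kif11 (2.54), Bub1 (2.71) and Spag5 (2.67), which serve the mitotic spindle, and Gpm6b (2.72), Dusp14 (2.68) and Slc36a3os (2.50), each from under 20 UMIs apart from Kif11.

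Among the 10 genes named as lowest, the NK receptor genes Klra4, Klra8 and Klrb1b and the receptor pseudogene Klra13-ps stood together. Klrb1b had 0 UMIs in checkpoint-positive cells and was at 17.8 (CON), 8.42 (HFD) and 2.95 (CCL4) CPM in the others, at least 3.94-fold lower against the level that 3 UMIs over the whole class would give. Klra4 was likewise at 0 and at least 3.44-fold lower, and Klra8 was at least 1.94-fold lower. Gzmc, a granzyme, and Tnfsf14, the ligand LIGHT, were each at least 3.27-fold lower. Nos1ap, Tceal3 and Cd5l were also at 0 (at least 2.22-, 2.05- and 2.05-fold lower, although 1 cell of CON held 23 of the 37 Cd5l UMIs of the other cells), while Tmem273, with 1 UMI left, fell by 3.56 on the log2 scale. Of these 20 genes named by size DESeq2 called 4 (Penk, Areg, Il10 and Kif11), and without CON 8 were tested and the same 4 called; without the library term 0 were called.

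Of 15 T cell identity genes tested, 8 rose and 0 fell, with a median log2 fold change of 0.53. The list counts of this comparison are from edgeR, and many of the calls depended on the test and the libraries. Of the called list genes outside those named by size, with markers of other cells counted, DESeq2 called 41 again and did not call 48. Without CON 45 were called again, 41 were not and 2 changed sign. Without HFD 65 were called again and 24 were not. Cd5, a brake on antigen receptor signalling that tracks its strength, was at 243 (CON), 141 (HFD) and 55.4 (CCL4) CPM against 90.0, 57.7 and 43.1 CPM (1.12 ± 0.18, edgeR adjusted p = 3.9e-08). Cd4 rose by 1.69 ± 0.20 (edgeR adjusted p = 2.2e-14) from 69.4, 31.2 and 11.2 CPM in the other CD4-lineage cells. In HFD and CCL4 these levels were near those of the checkpoint-positive CD8 cells. Lat, Cd247, Cd2, Cd6, Trbc2 and Cd28 made up the rest.

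In the regulatory T cell identity list 4 of 11 tested genes rose and 1 fell, with a median of 0.88. Ikzf2, which encodes Helios, a factor of thymic regulatory T cells that chronically stimulated T cells also carry, was at 949 (CON), 178 (HFD) and 240.1 (CCL4) CPM against 261, 75.8 and 96.8 CPM. The log2 fold change was 1.43 ± 0.14 (edgeR adjusted p = 4.0e-22). Ikzf2, like Tox below, was among the 5 genes proposed to mark these cells with earlier results of these data known. Its p-value is therefore no independent support for it as a marker. Across cells with 0, 1, 2 and at least 3 checkpoint UMIs, its level in CON was 211, 497, 870 and 986 CPM, in HFD 62.0, 146, 143 and 200.04 CPM, and in CCL4 92.5, 119, 165 and 351 CPM. The level was already higher at 1 UMI than at 0 in CON and HFD, whereas in CCL4 the counting intervals at 0 and 1 UMI overlapped. Tnfrsf18 (GITR), Capg and Nrp1 also rose, and Il2rb, a subunit of the interleukin-2 receptor, fell by 0.41 on the log2 scale. Of 16 effector and tissue regulatory T cell genes 6 rose, namely Il1rl1, Areg, Il10, Tnfrsf9, Batf and Prdm1. Gzmb, which encodes granzyme B, fell by 0.52 on the log2 scale but was higher in CCL4, and its difference turned to 0.053 without killer and innate-like T cells and to 0.29 with a Cd4 UMI required. It was at 353 (CON), 104 (HFD) and 240.1 (CCL4) CPM against 471, 306 and 106 CPM.

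Follicular helper and chronic-stimulation genes rose in 7 of 14 cases and fell in 0, with a median of 1.01. Maf, a transcription factor that drives Il10 and follicular helper genes, was at 1230.2 (CON), 484 (HFD) and 369 (CCL4) CPM against 331, 196 and 132 CPM, a log2 fold change of 1.47 ± 0.12 (edgeR adjusted p = 2.0e-30). Tox, a factor of chronically stimulated T cells, was at 330.2, 67.5 and 111 CPM against 83.0, 34.9 and 60.8 CPM (1.39 ± 0.18, edgeR adjusted p = 1.3e-12). It was higher still in the checkpoint-positive CD8 cells, at 515, 164 and 255 CPM, a difference that was not tested. Tox2 (2.28), Tnfsf8 (1.53), Izumo1r (1.20), Sh2d1a (1.14) and Nfatc1 (0.63) completed the group.

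Costimulatory receptors and ligands rose in 6 of 12 tested genes, and 0 fell. Icos, the inducible costimulator, was at 312 (CON), 451 (HFD) and 240.1 (CCL4) CPM against 246, 122 and 83.8 CPM, 1.03 ± 0.14 higher (edgeR adjusted p = 4.0e-11). Tnfrsf9 (4-1BB) rose by 1.58 ± 0.32, and Tnfsf8, Tnfrsf18, Cd27 and Cd28 were the others. Of 14 inhibitory receptors and ligands outside the selecting genes, 2 rose (Lair1 and Cd5) and 1 fell (Cd160), and Lair1 turned to -0.53 without CON. Lag3 was at 30.8, 3.07 and 12.3 CPM against 6.60, 3.79 and 6.49 CPM (1.48 ± 0.51, edgeR adjusted p = 0.063), and Tigit was at 22.7, 9.20 and 0 CPM against 7.76, 4.21 and 3.54 CPM (1.11 ± 0.56, edgeR adjusted p = 0.33).

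The naive and recirculating list went the other way, with 10 of 12 genes lower, 0 higher and a median of -0.91. Satb1, a chromatin organizer of naive T cells, was at 206 (CON), 172 (HFD) and 92.3 (CCL4) CPM against 712, 217 and 208 CPM, and fell by 1.33 ± 0.15 (edgeR adjusted p = 6.9e-17). Klf2, which keeps T cells recirculating, fell by 0.93 ± 0.12 (edgeR adjusted p = 6.5e-13). Il7r, the interleukin-7 receptor of resting T cells, was at 186 (CON), 205 (HFD) and 86.2 (CCL4) CPM against 533, 210.5 and 171 CPM and fell by 1.02 ± 0.15 (edgeR adjusted p = 1.3e-09), with no difference beyond counting error in HFD. Tcf7 was likewise not lower in HFD (85.9 against 81.2 CPM). Lef1, Ccr7, Tcf7, Dapl1, Klf3 and Igfbp4 were among the other members called. Klf3 was not lower in CCL4 (92.3 against 82.0 CPM). For Satb1 in HFD the ratio to the other cells was 0.791, with a counting interval of 0.589 to 1.04 that included 1. In the tissue residence and homing list 5 of 15 genes rose (among them S100a4, Itga4, Rgs1 and Itgb1) and Itga1 fell. S100a4, a calcium-binding protein of memory T cells, stood at 278, 386 and 412 CPM against 119, 107 and 94.4 CPM (1.55 ± 0.14, edgeR adjusted p = 3.4e-25).

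Cell-cycle genes rose in 10 of 12 cases, with a median of 1.88. Top2a, the topoisomerase of dividing cells, was at 159 (CON), 104 (HFD) and 111 (CCL4) CPM against 37.6, 23.2 and 27.7 CPM (1.95 ± 0.21, edgeR adjusted p = 1.8e-17). Mki67, the Ki-67 gene, was detected in 35 of the 395 cells and was at 138, 49.1 and 24.6 CPM against 24.4, 14.7 and 10.0 CPM (2.02 ± 0.27, edgeR adjusted p = 1.2e-11). These 35 cells had a median of 4042 UMIs against 2243.5 in the other checkpoint-positive cells. Median depth was 2409.5 (CON), 2312.5 (HFD) and 2052 (CCL4) UMIs in checkpoint-positive cells and 2379.5, 2271 and 2053 in the other CD4-lineage cells. The part of depth in this difference was not tested. Antigen receptor response genes divided, since Irf4, which such signals induce in activated T cells, rose by 1.93 ± 0.32 while the early genes Fos, Egr1, Dusp2 and Junb fell. Of these only Fos was lower in all 3 libraries, since Egr1 (258 against 255 CPM) and Dusp2 (144 against 131 CPM) were not lower in HFD and Junb was not lower in CCL4 (874 against 838 CPM). Among 12 interferon-stimulated genes, 2 rose. Among these, Ifi27l2a was at 539, 448 and 609 CPM against 108, 110 and 165 CPM (1.96 ± 0.13, edgeR adjusted p = 9.3e-49).

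**Figure D3:**
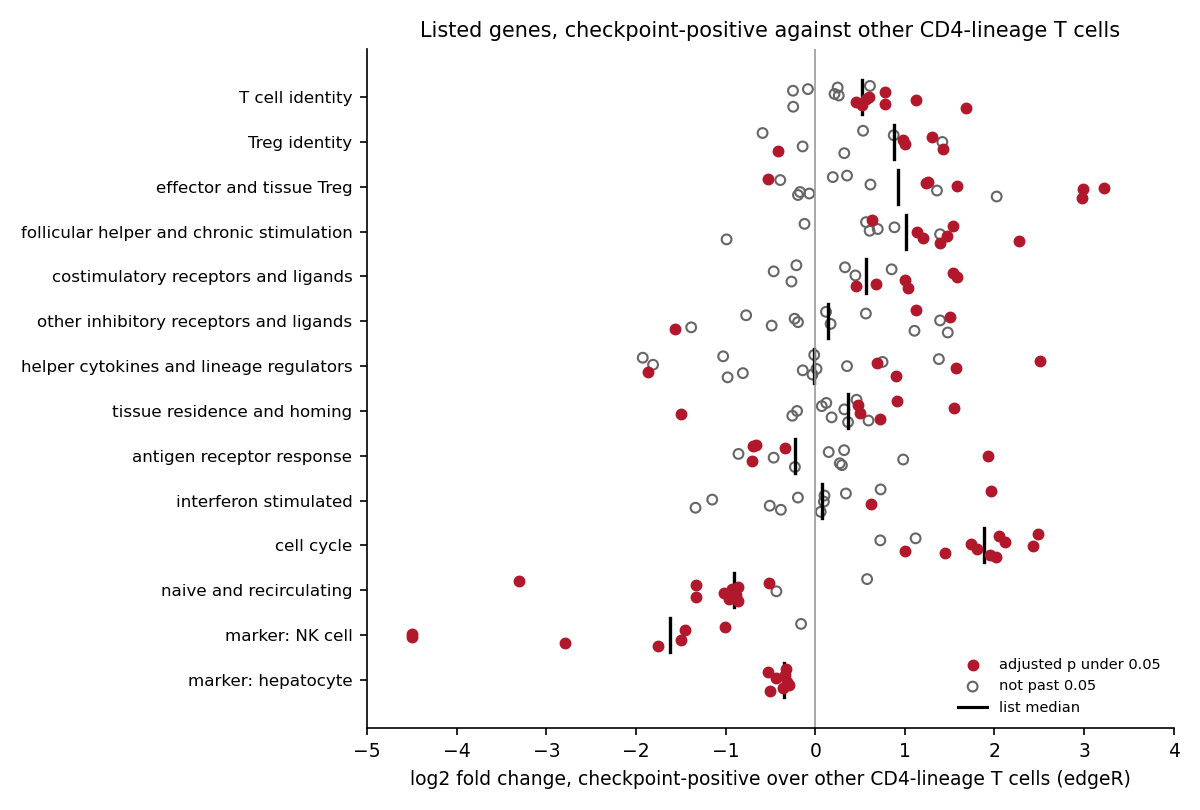
Log2 fold change of each listed gene in checkpoint-positive against other CD4-lineage T cells (edgeR, library as a term); each circle is 1 gene, filled where the adjusted p was under 0.05, the bar is the list median, and values under -4.5 are drawn at -4.5. The cell-cycle median was 1.88, the follicular helper and chronic-stimulation median was 1.01, and the naive median was -0.91.

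Of 17 helper cytokine and lineage genes tested, 4 rose (Il17a, Gzmk, Eomes and Rora) and Il12rb2 fell. Il17a, Gzmk and Eomes were higher in 2 of 3 libraries only. Il17a was at 43.7 (CON), 426 (HFD) and 0 (CCL4) CPM against 8.92, 57.2 and 5.31 CPM, while Gzmk, which encodes granzyme K, was at 212, 12.3 and 98.5 CPM against 41.1, 28.2 and 24.8 CPM. Eomes, a factor of cytotoxic and granzyme K-expressing T cells, was at 248, 18.4 and 55.4 CPM against 74.5, 39.6 and 43.1 CPM, and without CON its difference was -0.48. Ifng was at 93.9, 132 and 67.7 CPM against 98.5, 110.3 and 60.8 CPM (-0.03 ± 0.19, edgeR adjusted p = 0.97).

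Markers of other cells moved with this comparison. NK cell markers fell in 7 of 8 cases and innate-like and gamma delta T cell markers in 6 of 7. The summed NK marker level was 408 (CON), 224 (HFD) and 80.0 (CCL4) CPM against 814, 485 and 181 CPM in the other CD4-lineage cells. Gzma was the most abundant in both classes, and Klra4 and Klra8 were at 0 in every library of the checkpoint-positive cells. When cells with NK or innate-like markers were left out of both classes, 246 of 10947 genes were higher (2.25%) and 265 lower (2.42%). Then 8 of 15 T cell identity, 7 of 13 chronic-stimulation and 11 of 12 cell-cycle genes were higher, and 11 of 12 naive genes were lower.

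Hepatocyte markers were lower in all 8 cases, with a median log2 fold change of -0.34; their summed level was 26654 (CON), 82756 (HFD) and 118047 (CCL4) CPM against 34658, 95617 and 126976 CPM, with Fabp1 (Alb in CCL4) the most abundant. Dendritic cell markers rose in 4 of 5 cases (Siglech, Cd74, H2-Ab1 and H2-Aa), with sums of 562, 190.1 and 529 CPM against 170, 195 and 211 CPM; Siglech came from 4 cells, all in CON, and Xcr1 was at 0. With likely doublets left out, Cd74, H2-Ab1 and H2-Aa were no longer called and their differences turned negative (-0.15, -0.19 and -0.56), and the counts over all genes were 169 higher (1.54%) and 217 lower (1.98%). Igkc, the kappa light chain, was the 1 B cell marker of 4 that rose (2.08 ± 0.11, edgeR adjusted p = 4.1e-71), but 1 cell held 1163 of its 1235 UMIs in HFD and another 283 of 294 in CCL4. The SE and the p-value do not cover this spread over cells. Monocyte, granulocyte, endothelial and erythroid markers gave 0 calls in 5, 6, 6 and 4 tested genes, of which 0, 2, 1 and 1 had an unadjusted p under 0.05; DESeq2 also gave 0 calls. The part of these markers in the other differences was not tested further.

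The comparison was narrowed once more, after the data had been seen, to cells with a Cd4 UMI in both classes. Then 36 of 6190 genes were higher (0.582%) and 34 lower (0.549%). Of the called list genes outside those named by size, 20 were called again, 52 were not and 5 changed sign. Of the 20 genes named by size, 4 were tested and 3 called. Penk, Areg, Ikzf2, Tox, S100a4, Il17a and Ifi27l2a were among those higher again and Lef1, Il7r and Klf2 among those lower, and 8 of 11 tested cell-cycle genes rose. T cell identity and costimulatory genes gave 0 calls by edgeR in that smaller comparison (2 of 14 and 3 of 12 had an unadjusted p under 0.05). The Cd4 difference of -0.09 in that comparison was set by the selection.

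Within the checkpoint-positive cells, Gzmk, Il17a and Foxp3 were not found together in any cell. Of 395 cells, 79 had a Gzmk UMI, 27 had an Il17a UMI and 27 had a Foxp3 UMI, and 0 cells had any pair of the 3. Il17a lies at chr1:20730905-20734496 on the plus strand (GRCm38) and overlaps no other annotated gene. Foxp3 overlaps 4 (Ccdc22, Flicr, Gm36995 and Ppp1r3f) and Ctla4 overlaps 1 (Rpl18-ps1). Whether these overlaps bear on the UMIs of Foxp3 or Ctla4 was not tested. In hepatocyte barcodes, which should lack these genes, Gzmk was found in 2 of 5224 (CON), 11 of 8118 (HFD) and 15 of 8868 (CCL4), and Il17a in 0, 6 and 1. Since most Il17a-positive cells were in HFD and most Gzmk-positive and Foxp3-positive cells in CON, few cells with Il17a and either other gene could have occurred, and the counts of 0 are given without a test. Co-detection is a description, since cells of 1 library are not replicates and every count depends on depth.

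The Gzmk-positive cells were 64 in CON, 4 in HFD and 11 in CCL4, with a median of 2469 UMIs against 2265 in the others. Ccl5, a chemokine of cytotoxic and memory T cells, was found in 78 of the 79, Nkg7, a cytotoxic granule gene, in 66, and Eomes in 46. Because most of these cells were in CON, shares were compared within that library. Thinned to 1000 UMIs, Eomes was expected in 36.0% of the Gzmk-positive cells of CON and 13.8% of the Gzmk-negative ones, and Nkg7 in 64.1% and 32.9%. Pdcd1 was found in 25 of them, all in CON, Tox in 47 and Il10 in 19. At 1000 UMIs the expected shares in CON were 34.9% against 21.6% for Tox and 11.3% against 6.31% for Il10. Those for Pdcd1 were 16.7% against 8.32%, but Pdcd1 helped to choose the cells, so no difference is read from them.

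The Il17a-positive cells were 6 in CON, 21 in HFD and 0 in CCL4, with a median of 2641 UMIs against 2274 in the others. Rora, a transcription factor of interleukin-17-producing cells, was found in 22 of 27, Icos in 21, the protease gene Furin in 20 and Tnfsf8 (CD30 ligand) in 13. Within HFD, at 1000 UMIs, Furin was expected in 50.2% of them and 21.4% of the other cells, and Rora in 45.9% and 28.8%. Ccl5 was found in 2, Nkg7 in 1, and Eomes in 0. Cd4 was found in 12.

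**Figure D4:**
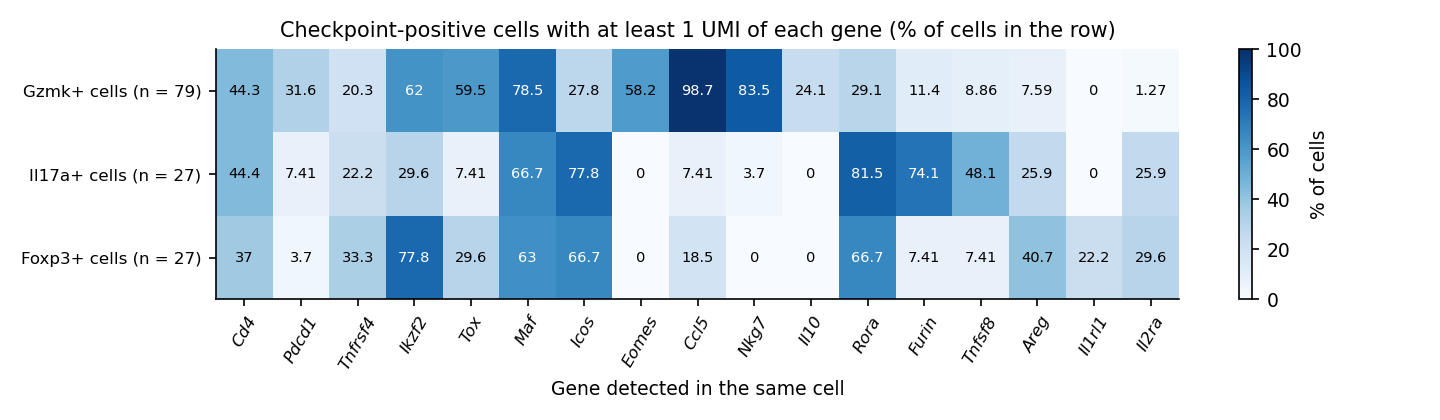
Percentage of Gzmk-positive (79), Il17a-positive (27) and Foxp3-positive (27) checkpoint-positive cells of all 3 libraries with at least 1 UMI of the gene named below each column; darker blue is a higher percentage. Ccl5 was found in 98.7% of Gzmk-positive cells, Rora in 81.5% of Il17a-positive cells and Ikzf2 in 77.8% of Foxp3-positive cells.

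Foxp3-positive cells were then set against Foxp3-negative ones. They had lower levels of Ccl5, Ccl4, Nkg7, Gzmb and Ccl3, with Nkg7, Gzmb and Ccl3 at 0. A larger share of them had Ikzf2 and Areg, a difference that was not tested. The 27 cells held 52512 (CON), 10858 (HFD) and 8110 (CCL4) UMIs, so 3 UMIs equal 42.0 CPM over the group and 57.1, 276 and 370 CPM within the libraries, and only large differences could be seen. The levels of Nkg7, Gzmb and Ccl3 in Foxp3-negative cells of HFD and CCL4 lay under those limits, so that for these genes only CON carried information. In simulated counts of this size, log2 changes of 4 were recovered in 100% of raised and 19.1% of lowered genes, and changes of 2 in 4.08% and 2.13%.

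Of 6674 genes tested, 1 was higher (0.015%) and 11 lower (0.165%) in the Foxp3-positive cells (edgeR, adjusted p under 0.05), and 499 had an unadjusted p under 0.05. The median log2 fold change of all genes was -0.63 and was -0.17 with the scaling of DESeq2, under which 18 genes were higher and 16 lower. Ccl5 was at 229 (CON), 0 (HFD) and 0 (CCL4) CPM in Foxp3-positive cells against 12059, 1639.9 and 6809 CPM, a log2 fold change of -6.56 ± 0.63 (edgeR adjusted p = 1.1e-21). Nkg7 had 0 UMIs in Foxp3-positive cells against 801, 203 and 285 CPM, at least 12.9-fold lower. Gzmb was also at 0 (at least 6.70-fold lower), as was the chemokine gene Ccl3 (at least 5.78-fold lower, with 109 of 212 Foxp3-negative UMIs of CON in 1 cell), and Ccl4 fell by 2.48 ± 0.61 on the log2 scale (edgeR adjusted p = 0.025). Ccl4 was at 933 (CON), 0 (HFD) and 0 (CCL4) CPM against 1564, 822 and 732 CPM, and 2 CON cells held all 49 of its UMIs in Foxp3-positive cells, 37 of them in 1. Of the 12 genes called, DESeq2 called 4 (Ccl5, Hba-a1, Hba-a2 and Hbb-bs), and without CON 11 were tested and 5 called (Ccl5, Ccl4, Hbb-bs, Igha and Igkc).

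The other 6 lower genes belong to red cells and plasma cells. Hbb-bt had 0 UMIs, at least 14.2-fold lower, and Hba-a1, Hba-a2 and Hbb-bs had log2 fold changes of -4.80, -6.04 and -5.45. Hbb-bt was found in 15 (CON), 3 (HFD) and 3 (CCL4) Foxp3-negative cells and Hbb-bs in 62, 19 and 9. Single cells held much of both, with 243 of 557 UMIs in 1 cell of CON and 48 of 50 in 1 cell of CCL4, and 1 cell each held 897 of 2254 (CON) and 213 of 226 (CCL4) UMIs of Hbb-bs. The summed level of 6 erythroid and platelet markers was 209 (CON), 0 (HFD) and 0 (CCL4) CPM in Foxp3-positive cells against 7364, 466 and 2326 CPM. Igha was at 0, but 3 (CON), 5 (HFD) and 2 (CCL4) Foxp3-negative cells held all of it. Of its UMIs 1 cell held 167 of 172 in HFD and another 99 of 100 in CCL4. It was at 5.31 (CON), 546 (HFD) and 648 (CCL4) CPM in Foxp3-negative cells. The limits were 57.1, 276 and 370 CPM, so the pooled bound of 6.33-fold holds in none of the libraries alone. Igkc was -3.36 ± 0.65, with 1163 of 1234 UMIs in HFD and 283 of 294 in CCL4 in 1 Foxp3-negative cell each, and in CON it was higher in the Foxp3-positive cells (152 against 104 CPM). Mmp8, a neutrophil collagenase and the gene that was higher (3.52 ± 0.83, edgeR adjusted p = 0.013), had 17 UMIs in 2 CON cells, 16 of them in 1. Mmp8 was not called by DESeq2 or from 3 checkpoint UMIs (edgeR adjusted p = 0.40), and it was not tested without CON, with Foxp3 taken from 2 UMIs, without killer and innate-like T cells or without likely doublets. Igkc and Mmp8 are named because they were called and fall outside the rule for naming. The summed granulocyte marker level was 10436, 0 and 0 CPM in Foxp3-positive cells against 3379, 710.5 and 104 CPM. The 8 NK markers were all at 0 in Foxp3-positive cells against a summed 446, 232 and 84.2 CPM, with Gzma the most abundant, and 0 of the 3 tested were called (3 had an unadjusted p under 0.05). Of the 8 hepatocyte markers 0 were called, although all 8 had an unadjusted p under 0.05 (2 by DESeq2), with a median below that of all genes (-0.44 against -0.17 with the scaling of DESeq2). Their summed level was 17253, 85099 and 126264 CPM against 27527, 82676 and 117615 CPM, lower only in CON. Of 12 cell cycle genes 0 were called and 3 had an unadjusted p under 0.05, with a median of -1.43. Whether the RNA of these other cells bears on other differences was not tested.

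Regulatory T cell identity genes did not pass the test in this small group. Over all gene lists, DESeq2 called 2 genes that the main test did not, and its scaling alone 12. With Foxp3 taken from 2 UMIs there were 16 such genes, and without likely doublets 2. Of 9 identity genes tested 0 were called by edgeR and 0 by DESeq2, and 1 had an unadjusted p under 0.05, with a median of 0.66 against -0.63 for all genes. With the scaling of DESeq2 it was also 0 of 9, with 4 unadjusted p under 0.05 and a median of 1.11, and with Foxp3 taken from 2 UMIs 0 of 9. Ikzf2 was at 1657 (CON), 645 (HFD) and 617 (CCL4) CPM against 883, 162 and 220.3 CPM, higher in all 3 libraries (0.66 ± 0.54, edgeR adjusted p = 0.83). Il1rl1 was at 438, 0 and 0 CPM against 15.9, 12.7 and 6.48 CPM, from 6 of 18 cells in CON (3.54 ± 0.97, edgeR adjusted p = 0.11). Ifi27l2a was at 1371, 1566 and 1849.6 CPM against 462, 409 and 544 CPM (0.94 ± 0.50, edgeR adjusted p = 0.59).

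Detection per cell was also counted. Ikzf2 was found in 21 of 27 Foxp3-positive cells, Icos and Rora in 18 each, Areg in 11, Tnfrsf18 in 10, Gata3 in 9, Il2ra in 8 and Il1rl1 in 6. Without likely doublets, 12 of 18 (CON), 3 of 5 (HFD) and 4 of 4 (CCL4) Foxp3-positive cells remained. Of all checkpoint-positive CD4-lineage cells, 156 of 202, 97 of 120 and 67 of 73 remained. Detection was not counted again without them. At 1000 UMIs the expected share within CON was 70.2% against 46.9% of Foxp3-negative cells for Ikzf2 and 21.0% against 4.21% for Areg. Nkg7, Gzmk, Eomes and Il10 were each found in 0. Pdcd1 was found in 1 and Havcr2 in 0, but both genes and Foxp3 helped to choose the cells, so no difference is read from these counts. For Il10, 0 of 27 cells allows a detected share up to 11.1% by the limit of 3 counts and 12.8% by the exact interval. A count of 0 UMIs limits detection, not the share of cells that carry the transcript. Of Foxp3-negative cells 11.4% had a UMI, which lies between these limits, so they cannot decide whether the shares differ. Within CON Il10 was found in 0 of 18 against 36 of 184 cells. This difference was not tested. Of the 12 Il1rl1-positive cells 6 had Foxp3, 8 had Areg and 8 had Gata3.

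Levels were compared between conditions as ratios of CPM + 20 in genes with at least 50 CPM in either library, without a test. Of 3931 genes, 337 were at least 2-fold higher (8.57%) and 488 at least 2-fold lower (12.4%) in the HFD than in the CON library. Of 3867 genes, 421 were higher (10.9%) and 824 lower (21.3%) in CCL4 than in CON. The median log2 ratio of all genes was -0.22 for HFD and -0.40 for CCL4. The summed hepatocyte marker level moved from 26654 CPM in CON to 82756 in HFD and 118047 in CCL4. A larger share of such UMIs by itself lowers the CPM of genes outside this background. With the 20 most abundant background genes left out of the scaling, the medians were -0.11 and -0.22, and the counts were 466 higher and 465 lower for HFD and 594 higher and 732 lower for CCL4, so that 44.8% of the CCL4 genes past 2-fold were higher in place of 33.8%. Of the higher genes, 284 of 337 for HFD and 329 of 421 for CCL4 had a higher level in the barcodes with 0 CD3 UMIs of the HFD or CCL4 library than in its checkpoint-positive cells, against 1492 of 3931 and 1550 of 3867 over all genes compared. Of the lower genes, 41 of 488 and 77 of 824 had a higher level in the barcodes with 0 CD3 UMIs of CON than in its checkpoint-positive cells, against 1522 of 3931 and 1488 of 3867 over all genes compared.

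In HFD the checkpoint-positive cells had more Il17a, Furin and Tnfsf8 than in CON and less Gzmk. Il17a was at 426 CPM (139 UMIs in 21 cells) against 43.7 CPM (27 UMIs in 6 cells), a ratio of 9.75 (exact 95% interval 6.42 to 15.3 for counting error). Furin was at 393 against 51.8 CPM, a ratio of 7.58 (5.11 to 11.5), and Tnfsf8 at 294 against 55.0 CPM, 5.35 (3.58 to 8.16). In the other CD4-lineage cells these genes were at 57.2 against 8.92, 160.0 against 81.9 and 53.0 against 34.9 CPM, and in barcodes with 0 CD3 UMIs Il17a and Tnfsf8 were at most 2.05 CPM, whereas Furin was at 115 against 73.0 CPM. Gzmk was at 12.3 CPM in HFD (4 UMIs) against 212 CPM in CON (131 UMIs), a ratio of 0.0578 (0.0155 to 0.152). Eomes was at 18.4 against 248 CPM, Ccl5 at 1585 against 11054 CPM and Nkg7 at 196 against 733 CPM. The other genes named for HFD were Gsn and Dcn, higher through 3 cells each, and the haemoglobin genes Hbb-bt, Hba-a1, Hba-a2 and Hbb-bs. The haemoglobin genes had log2 ratios of -4.10, -4.07, -3.59 and -3.54 and were lower also in barcodes with 0 CD3 UMIs.

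In CCL4 the named higher genes were those of other cells, and Cd4 was among the lower ones. Rarres2 was at 1151 against 118 CPM, Gchfr at 585 against 59.9 CPM and Hgd at 314 against 51.8 CPM, and in barcodes with 0 CD3 UMIs the same genes were at 1103 against 255, 511 against 249 and 303 against 102 CPM. Igha and Igkc were higher through 2 and 6 cells, 1 of which held 99 of 100 Igha and 1 of which held 283 of 294 Igkc UMIs. Cd4 was at 24.6 CPM (4 UMIs) against 265 CPM (164 UMIs), a ratio of 0.0928 (0.0250 to 0.242), and in the other CD4-lineage cells at 11.2 against 69.4 CPM. Phip was at 6.16 CPM against 189 CPM, Zc3h7a at 6.16 against 144 CPM, and Tle3, a transcriptional corepressor, at 0 against 117 CPM. The other CD4-lineage cells were lower in CCL4 too, at 43.1 against 179, 43.1 against 94.3 and 36.0 against 83.0 CPM. In barcodes with 0 CD3 UMIs the same genes were at 32.0 against 80.4, 34.0 against 54.2 and 11.5 against 41.1 CPM. Retnlg, a neutrophil gene, was at 6.16 against 293 CPM. Areg and Ifi27l2a had similar or higher levels in CCL4 than in CON (135 against 85.8 and 609 against 539 CPM), while Maf was at 369 against 1230.2 CPM and Il10 at 12.3 against 98.7 CPM.

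**Figure D5:**
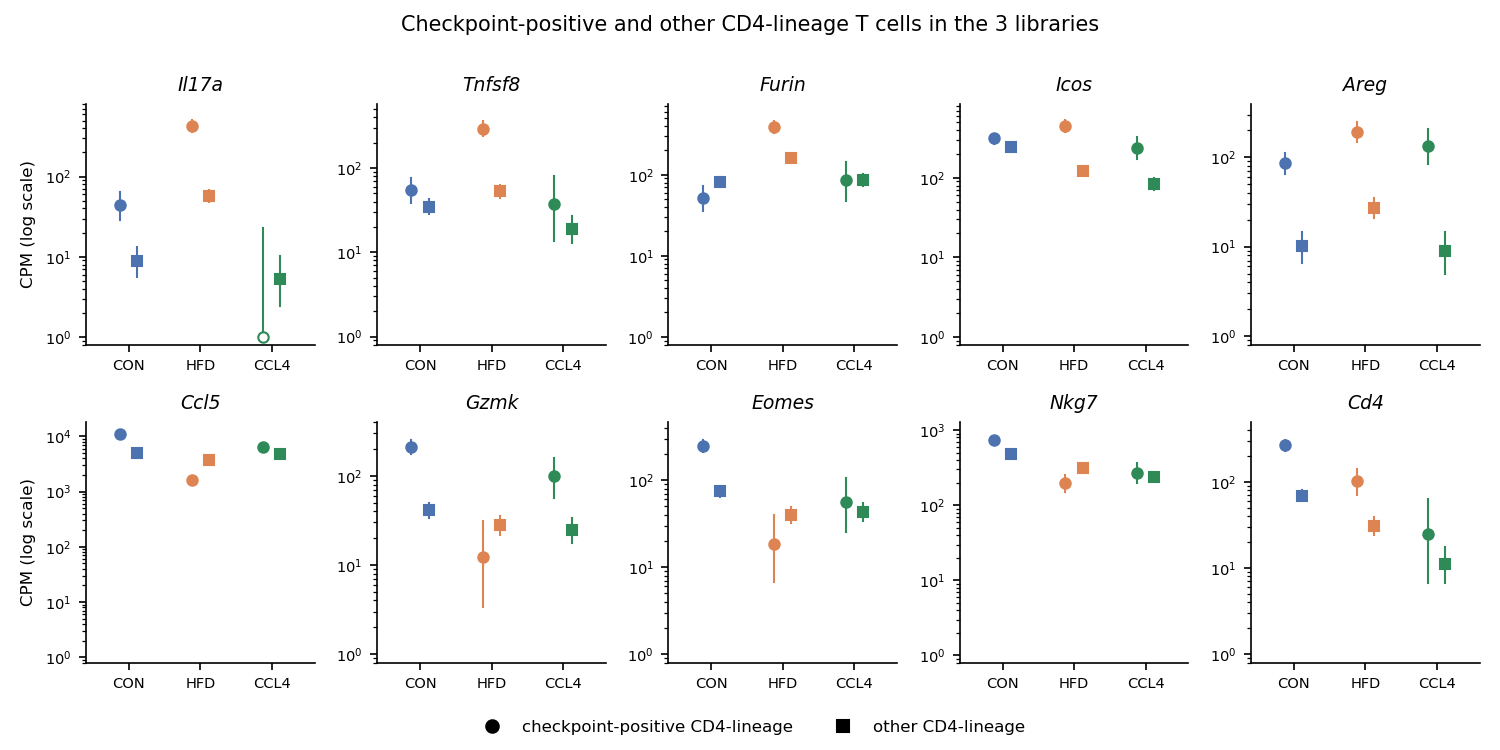
Levels (CPM, log scale) of 10 genes in checkpoint-positive (circles) and other (squares) CD4-lineage T cells of each library; lines are exact 95% Poisson intervals for counting error, and a level of exactly 0 is drawn as an open symbol at 1 CPM. In the checkpoint-positive cells Il17a was at 426 CPM in HFD, 43.7 in CON and 0 in CCL4, whereas Gzmk was at 12.3 CPM in HFD, 212 in CON and 98.5 in CCL4.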

How the data were processed

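Per the file headers, the authors used Cell Ranger 7.2.0, and each library's deposited matrix holds UMI counts, not normalized, for every gene in each retained barcode. The study's methods name mm10 as the reference, while the submitters' processing notes list GRCm39, Cell Ranger and Seurat, so positions were taken from the GENCODE M21 annotation of GRCm38 through gene identifiers (52081 of 55357 matched) and no other coordinate was used. The cells and gene lists were chosen with earlier results of these data known.

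Barcodes were classed by the rule given above, without clustering and without a doublet caller; likely doublets, left out as an alternative, carried a UMI of Ms4a1, Cd79b, Lyz2, C1qa or S100a8 or were in the top 5% of UMIs. UMIs were summed per library and class and tested with edgeR 4.0.16 (TMM scaling, quasi-likelihood test, library as a term, R 4.3.3) in genes with at least 20 UMIs over the 6 sums, with Benjamini-Hochberg adjustment. DESeq2 1.42.0, other scalings and filters and each library left out were the alternatives. Named genes were up to 10 (other CD4-lineage) or 15 (Foxp3) per direction by size among genes called and changed in the same direction in all 3 libraries, and 5 per direction for each condition among genes above their level in barcodes with 0 CD3 UMIs; genes of the lists were named besides. Levels are CPM of the class sum with exact Poisson intervals, and shares have exact Clopper-Pearson intervals (95%), computed with Python 3.11.15 and scipy 1.17.1. PCR duplicates are collapsed by UMIs, but both intervals cover counting error only. The fits were tested on simulated counts: for the other CD4-lineage comparison, log2 changes of 2 were recovered in 90.0% of raised and 62.5% of lowered genes, and changes of 1 in 47.9% and 29.2%. Results for a few list members are not reported here.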

Additional observations from a re-analysis of the deposited data

Results flagged for a closer look

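For 9 genes the ratio of the level in checkpoint-positive to that in other CD4-lineage T cells lay above 1 in at least 1 library and below 1 in another, beyond the counting intervals of both. The difference between libraries was not tested, since each condition had 1 library. Gzmb, which encodes granzyme B, had ratios of 0.75 (CON), 0.34 (HFD) and 2.26 (CCL4). Ccl5, a chemokine of cytotoxic T cells, had ratios of 2.19, 0.42 and 1.38, and Nkg7, a cytotoxic granule gene, of 1.52, 0.631 and 1.13. Both were below 1 in HFD, and the interval of Nkg7 in CCL4 (0.808 to 1.55) included 1.

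Ighm, the immunoglobulin mu heavy chain, had ratios of 1.49 (CON), 1.72 (HFD) and 0.389 (CCL4), where 1 of the other cells held 225 of 322 UMIs. S100a8, a neutrophil calcium-binding protein, had ratios of 1.19, 0.697 and 0.532, with all 83 UMIs of the checkpoint-positive cells of HFD in 1 cell and 5 UMIs in CCL4. The haemoglobin genes moved together and were lower in the checkpoint-positive cells of HFD. Their ratios were 2.08 (CON), 0.123 (HFD) and 1.70 (CCL4) for Hba-a1, 2.24, 0.208 and 1.69 for Hba-a2, 2.03, 0.22 and 2.91 for Hbb-bs, and 2.16, 0.121 and 3.81 for Hbb-bt. In CCL4 the values above 1 rested on single checkpoint-positive cells, which held 40 of 44 Hba-a1, 33 of 38 Hba-a2, 213 of 226 Hbb-bs and 48 of 50 Hbb-bt UMIs. In CON 1 checkpoint-positive cell per gene held 273 of 735 Hba-a1, 228 of 617 Hba-a2, 897 of 2261 Hbb-bs and 243 of 557 Hbb-bt UMIs. The counting intervals do not cover this.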

How the results depend on the processing

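The comparison with other CD4-lineage T cells (275 genes higher and 377 lower) gave 73 and 69 by DESeq2, 0 and 0 without the library term, 182 and 246 from 3 checkpoint UMIs, 169 and 217 without likely doublets, and 36 and 34 with a Cd4 UMI required, an alternative chosen after seeing the data. Leaving out 1 library gave 105 to 200 higher and 99 to 250 lower genes, lowest without CON. Differences changed sign for Cd4 (-0.093), Gzmb (0.29), H2-Aa (-2.84), H2-Ab1 (-1.31) and Cd74 (-2.36) with a Cd4 UMI required, for Gzmb (0.053) without killer and innate-like T cells, for Lair1 and Eomes without CON (range without 1 library -0.53 to 2.21 and -0.48 to 1.29), and for Lair1 (-0.13), H2-Aa (-0.56), H2-Ab1 (-0.19) and Cd74 (-0.15) without likely doublets. The value for Cd4 was set by the selection, and the other causes were not tested. No paired analysis between conditions was possible because each condition had 1 library.

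The Foxp3 comparison (1 higher, 11 lower) gave 2 and 4 by DESeq2, 18 and 16 with the size factors of DESeq2, 7 and 99 without a minimum on counts, 3 and 12 without the library term, 0 and 7 from 3 checkpoint UMIs, 3 and 78 with Foxp3 taken from 2 UMIs, 3 and 19 without killer and innate-like T cells and 2 and 9 without likely doublets. Without 1 library, 0 to 7 genes were higher and 7 to 9 lower. The 27 cells held 71480 UMIs, which limits what this comparison could detect.

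The share among CD3-positive barcodes in CON, HFD and CCL4 was 7.54, 4.08 and 2.85% at 1000 UMIs, 9.32, 5.73 and 4.51% at 1500 UMIs, 6.98, 4.63 and 2.20% from 3 checkpoint UMIs, and 14.6, 9.12 and 6.11% without killer and innate-like T cells, in the same order each time. Genes past 2-fold in HFD were 475 higher and 742 lower with CPM + 5, 184 and 189 with CPM + 50, and 234 and 294 from 100 CPM; for CCL4 they were 524 and 1116, 260 and 348, and 290 and 465.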
